A study of Mus musculus with 2 samples.

Results

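The genes described here are those of endoplasmic reticulum (ER) stress and secretory folding: chaperones, disulfide bond enzymes, stress sensors and their targets, degradation factors and components of the translocation channel. They were chosen as the gene-probe spots whose gene name on both arrays equals 1 of 43 listed symbols, and 41 of the 43 were found, out of 28090 gene names in all. The series compared regulatory T cells (Tregs, the Foxp3-expressing CD4 cells that hold immune responses in check) with and without Bcl11b, a zinc finger transcription factor of T cells. On the Cd4Cre array, Bcl11b-deficient cells of Bcl11bF/F/Cd4Cre/Foxp3-GFP+ mice were set against wild type Foxp3-GFP+ cells. On the Foxp3Cre array, Bcl11b-deficient cells of Bcl11bF/F/Foxp3Cre mice were set against wild type Tregs. All mice were C57BL\6, each wild type pool came from 3 mice, and the labels give no number of mice for the deficient pools. Cd4Cre is driven by Cd4 regulatory sequence, which acts during thymic development, and Foxp3Cre by the Foxp3 locus, so that it acts once Foxp3 is on.

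A single hybridisation measured each Cre system, on a two-colour Agilent array with deficient RNA in Cy5 and wild type RNA in Cy3. A dye bias would therefore run in the same direction on both arrays, and neither array has a replicate, so its ratios carry no p-value. Ratios are given as log2 of deficient over wild type, and signals as log2 intensities in arbitrary units. Signals of different genes come from different probes and were not compared. Each gene took the value of the probe with the brightest mean signal. It was taken as detected if the scanner software put this probe well above background in either channel, which held for 15915 genes on the Cd4Cre and 15230 on the Foxp3Cre array. All 41 members were detected on both. The scanner software's error of a member's log2 ratio was between 0.20 and 0.61 on the Cd4Cre array, and between 0.20 and 0.46 on the Foxp3Cre array, and the median SD between repeat spots was 0.056 and 0.071 (245 probes).

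Bcl11b itself had signals of 13.09 in the deficient pool and 15.55 in the wild type pool on the Cd4Cre array (-2.46), and of 13.14 in the deficient pool and 14.95 in the wild type pool on the Foxp3Cre array (-1.82). The labelled cell type was checked against 6 Treg markers. On the Cd4Cre array 5 of the 6 were lower by 2-fold or more in the deficient pool, Foxp3 among them (-3.57), while 6 of 6 myeloid markers were higher by 2-fold or more (3.58 to 7.02). On the Foxp3Cre array the Treg markers had a median of -0.02 and Foxp3 read -0.20, while 5 of 6 myeloid markers were higher by 2-fold or more. A ratio near 0 does not show that both pools fit their label. Foxp3 signal was 9.82 in the deficient and 10.02 in the wild type pool there, against 12.5 in the Cd4Cre array's wild type pool. Summed Treg marker signal was 86810 and 85380 in the same pools, against 231300 in the Cd4Cre array's wild type pool. How far the Foxp3Cre pools fit their label was not tested. By these markers the deficient pool of the Cd4Cre array stood apart from its label, and whether its cells did was not tested. No second array of that system was at hand to give the results without that pool. In bulk samples like these, fewer cells of a type and less RNA per cell cannot be told apart.

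The ER is where secreted and membrane proteins enter the secretory route, fold and receive disulfide bonds. When unfolded protein accumulates there, a set of sensors responds: Ern1 (IRE1) splices Xbp1 mRNA, Eif2ak3 (PERK) slows translation and favours the factor Atf4, and Atf6 is cut to release a transcription factor. Xbp1 and Atf6 act through the ER stress response element (ERSE) in the promoters of chaperone genes. In lymphocytes this machinery is best known from plasma cells, which need Xbp1 to secrete antibody.

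Promoters were searched because the members' control is commonly described through these elements. RefSeq promoter sequences (GRCm38.p6, from 250 bases before to 50 bases after the start) matched 35 of the 41 members, 2 of them (Ero1l and Ero1lb) through a synonym. The ERSE was searched on both strands as CCAAT and CCACG 9 bases apart. It was found in 9 of the 35 members (25.7%), against 37 of all 27025 genes with a promoter (0.137%). The 9 were Hspa5, Hsp90b1, Calr, Canx, Creld2, Pdia6, Ero1lb, Derl3 and Syvn1, with 10 sites in all, 5 of them on the strand opposite to the gene. ERSE-II (ATTGG, 1 free base and CCACG) was found in Herpud1 alone among the members, against 12 of all genes (0.0444%). The core of the unfolded protein response element (TGACGTG) was found in Hspa5 and Vcp (5.71%, against 2.22% of all genes). The Atf4 site (TGATGNAA) was found in Asns, Chac1, Herpud1 and Trib3 (11.4%, against 4.51% of all genes). No site of one motif overlapped that of another in these promoters. A match describes the letters only, and the members had been chosen as genes of this response.

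The stretches below are a selection from the members with a site. They run 5′ to 3′ on the gene's strand and lie before the start, with the fixed letters of the motif in capitals (CGTGG and ATTGG where an ERSE lies on the opposite strand). The first 5 hold an ERSE, Herpud1 holds an ERSE-II, and Asns and Chac1 hold an Atf4 site. Of these members, Creld2, Hspa5 and Herpud1 reached 2-fold on neither array. The Atf4 sites of Herpud1 and Trib3 are not shown.
Derl3, chr10:75893217-75893285, plus strand: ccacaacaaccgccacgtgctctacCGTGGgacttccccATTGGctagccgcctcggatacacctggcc
Hsp90b1, chr10:86705508-86705681, minus strand: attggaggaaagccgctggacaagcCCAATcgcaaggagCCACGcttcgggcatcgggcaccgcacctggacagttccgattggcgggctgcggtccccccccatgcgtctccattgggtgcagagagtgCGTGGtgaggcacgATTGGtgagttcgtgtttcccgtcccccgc
Creld2, chr15:88819495-88819563, plus strand: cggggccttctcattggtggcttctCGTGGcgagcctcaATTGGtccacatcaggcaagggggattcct
Hspa5, chr2:34772000-34772068, plus strand: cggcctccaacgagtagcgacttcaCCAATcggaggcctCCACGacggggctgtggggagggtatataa
Syvn1, chr19:6046507-6046575, plus strand: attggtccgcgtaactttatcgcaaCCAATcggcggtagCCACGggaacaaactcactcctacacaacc
Herpud1, chr8:94386352-94386412, plus strand: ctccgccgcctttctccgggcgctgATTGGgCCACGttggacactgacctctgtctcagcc
Asns, chr6:7693210-7693257, minus strand: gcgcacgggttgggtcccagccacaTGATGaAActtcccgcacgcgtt
Chac1, chr2:119351024-119351081, plus strand: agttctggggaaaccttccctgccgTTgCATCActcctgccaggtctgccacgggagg

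On the Cd4Cre array, 10 of the 41 members were higher by 2-fold or more in the deficient pool and 2 were lower by 2-fold or more. Of all genes detected there, 11.4% were higher by 2-fold or more and 10.6% lower by 2-fold or more. The median over the members was 0.47, with a range from -1.20 to 2.73, against a median of -0.05 over all genes. Ratios were above 0 in 27 members and below 0 in 14, against 7515 and 8400 of the 15915 genes detected there. With ratios centred on the array's median and no loess, 19 members were higher by 2-fold or more and 1 lower, 7 of the 14 turned to above 0, and the share of all genes past 2-fold was 18% higher and 8.33% lower.

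On the Foxp3Cre array no member was higher by 2-fold or more and 3 were lower by 2-fold or more, against 2.94% higher and 11.5% lower of all genes. The median was -0.14, with a range from -1.51 to 0.73, against -0.08 over all genes. There 16 members were above 0 and 25 below 0, against 6913 and 8317 of the 15230 genes detected on this array. With median centring 10 members were instead higher by 2-fold or more and 1 lower, against 13.4% higher and 6.75% lower of all genes. The members' median on this array was then 0.35, and 13 of the 25 turned to above 0. Such centring shifted the all-gene median by 0.12 (Cd4Cre array) and 0.25 (Foxp3Cre array).

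**Figure D1:**
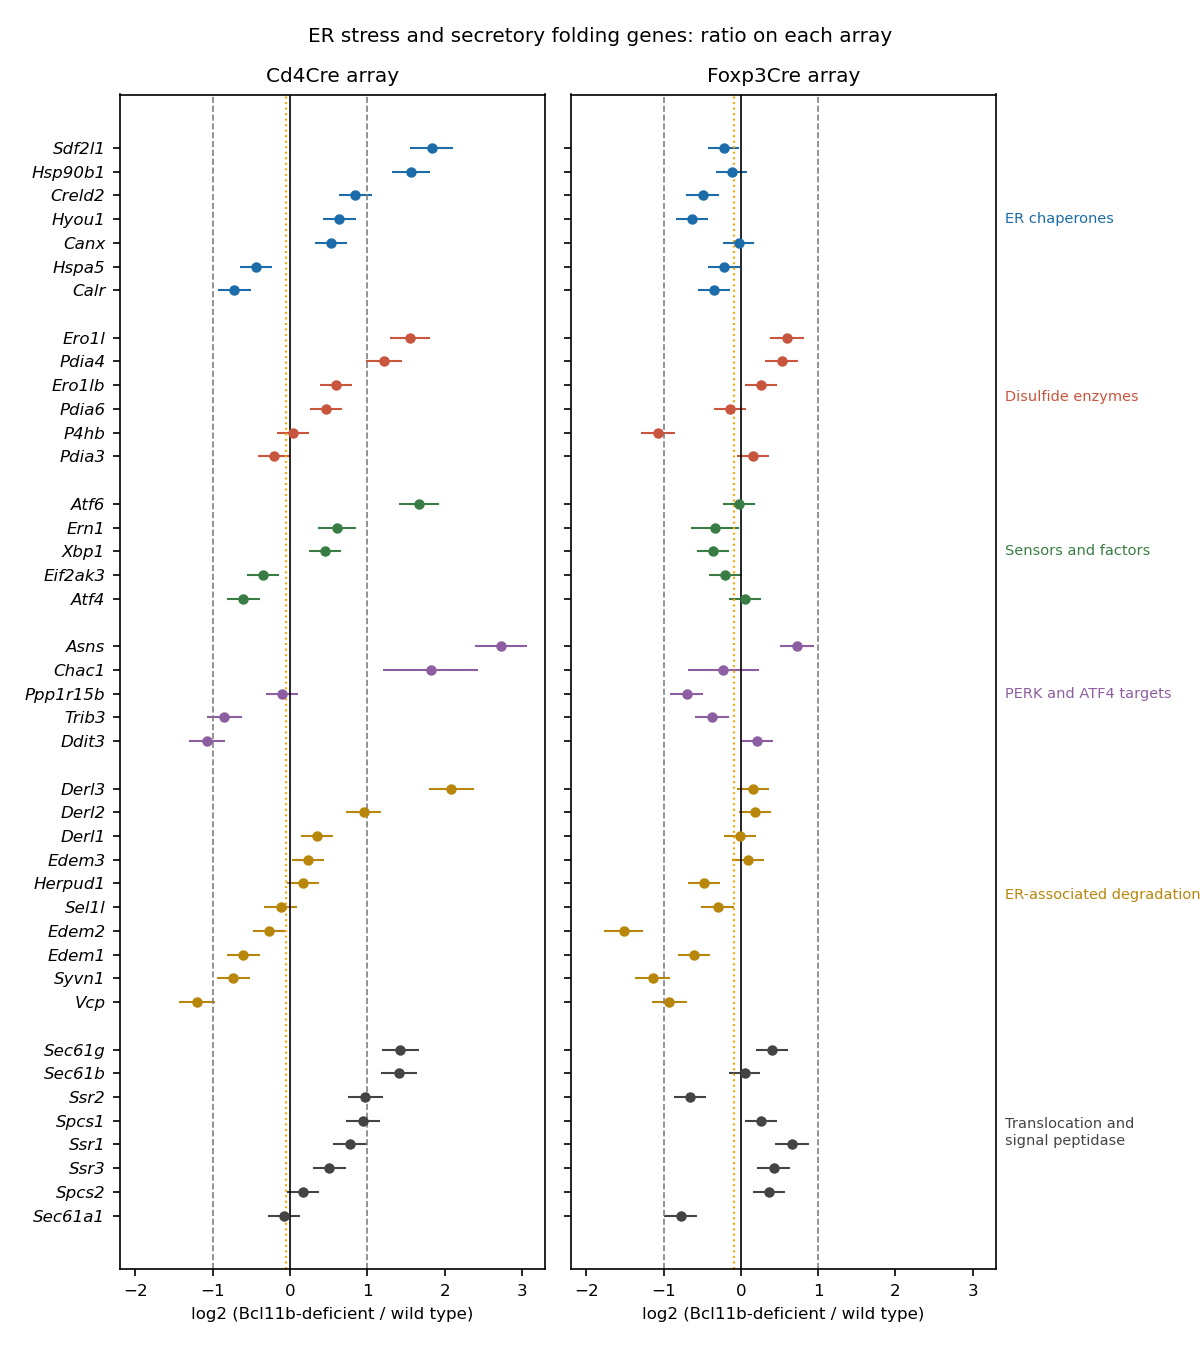
Each point is the log2 ratio of Bcl11b-deficient over wild type of 1 of the 41 genes, by role, on the Cd4Cre array (left) and the Foxp3Cre array (right), and the bars are the scanner software's error. Dashed lines mark 2-fold, the dotted orange line the median of all genes. On the left 10 genes lie right of the upper 2-fold line, and on the right none does.

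The chaperones of the ER lumen, which hold unfolded chains and help them fold, gave 2 of 7 higher by 2-fold or more on the Cd4Cre and 0 of 7 on the Foxp3Cre array. Sdf2l1, a partner of Hspa5 in the lumen, had 14.46 in the deficient pool and 12.63 in the wild type pool on the Cd4Cre array (1.83, 3.55-fold), and 12.80 and 13.03 in the deficient and wild type pools of the Foxp3Cre array (-0.22). Hsp90b1, the ER member of the HSP90 family (GRP94), had 16.80 in the deficient pool and 15.24 in the wild type pool on the Cd4Cre array (1.56), and 15.71 in the deficient pool and 15.83 in the wild type pool on the Foxp3Cre array (-0.12). Both were thus higher in the deficient pool of the Cd4Cre array. On the Foxp3Cre array their direction turned with median centring, to 0.25 for Sdf2l1 and 1.01 for Hsp90b1. The second probe of Hsp90b1 read 0.64 and 0.24 on the Cd4Cre and Foxp3Cre arrays.

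Creld2, a stress-induced lumenal protein, read 0.84 on the Cd4Cre and -0.50 on the Foxp3Cre array. Hyou1, an HSP70-like exchange factor, read 0.64 and -0.64 on the same arrays, and Canx (calnexin, the membrane-bound lectin chaperone) 0.53 and -0.03. Other probes of Canx read 0.66 and 0.99 on the Cd4Cre array, and 0.13 and 0.57 on the Foxp3Cre array. Hspa5 (BiP), the HSP70 of the ER and the usual marker of the response, was not among the higher genes. It had 15.76 in the deficient pool and 16.20 in the wild type pool on the Cd4Cre array (-0.44), and 15.49 in the deficient pool and 15.71 in the wild type pool on the Foxp3Cre array (-0.22). Under median centring it read 0.63 and 0.86, so its direction turned with the normalization.

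Calr (calreticulin, the soluble lectin chaperone) cannot be given 1 direction on the Cd4Cre array. Its brighter probe, at chr8:87366192-87366251 (mm9), read -0.72, and its other probe, at chr8:87368529-87368588, read 1.84. On the Foxp3Cre array the same probes read -0.34 and -0.41. By their brightest probes all 7 chaperones were below 0 on the Foxp3Cre array (median -0.22), though other probes of Canx and Hsp90b1 were above 0. With median centring 6 of the 7 were above 0 there (median 0.49), so no direction holds for this group on that array.

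Among the disulfide bond enzymes, 2 of 6 were higher by 2-fold or more on the Cd4Cre array. Ero1l, the oxidase that recharges protein disulfide isomerases, had 11.69 in the deficient pool and 10.13 in the wild type pool on the Cd4Cre array (1.55), and 11.23 in the deficient pool and 10.63 in the wild type pool on the Foxp3Cre array (0.60). Its second probe read 0.82 and 0.90 on the Cd4Cre and Foxp3Cre arrays, so that it was above 0 at both probes on both. Pdia4, a protein disulfide isomerase (ERp72), had 13.41 in the deficient pool and 12.20 in the wild type pool on the Cd4Cre array (1.21), and 13.32 and 12.79 in the deficient and wild type pools of the Foxp3Cre array (0.53).

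P4hb, the classical protein disulfide isomerase, differed on the other array: it had 14.06 in the deficient pool and 14.03 in the wild type pool on the Cd4Cre array (0.03), against 13.70 in the deficient pool and 14.77 in the wild type pool on the Foxp3Cre array (-1.07). With median centring P4hb read -0.34 on the Foxp3Cre array. Ero1lb, the second oxidase, read 0.59 and 0.26 on the Cd4Cre and Foxp3Cre arrays, and Pdia3 (ERp57, the partner of calnexin and calreticulin) -0.21 and 0.16. Pdia6 (P5) was measured by 4 probes that disagreed: 0.47, 0.78, 0.06 and -0.12 on the Cd4Cre array, and -0.14, 0.81, -0.58 and -1.09 on the Foxp3Cre array, the brightest first.

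Of the 5 sensors and transcription factors, 1 was higher by 2-fold or more on the Cd4Cre array. Atf6 had 12.50 in the deficient pool and 10.84 in the wild type pool on the Cd4Cre array (1.67), and 11.13 in the deficient pool and 11.15 in the wild type pool on the Foxp3Cre array (-0.02). Its second probe gave the same picture, with 1.51 and 0.14 on the Cd4Cre and Foxp3Cre arrays. Ern1 read 0.60 and -0.33, Xbp1 0.46 and -0.36, Eif2ak3 -0.35 and -0.20, and Atf4 -0.61 and 0.05, each on the Cd4Cre array first. The second probe of Eif2ak3, detected on both arrays, read -1.097 and -1.109, lower by more than 2-fold on both, so the size for this gene depends on the probe. These are levels of mRNA only: splicing of Xbp1, cleavage of Atf6 and translation of Atf4, through which the sensors act, were not measured by these probes.

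The targets and feedback genes of the PERK and Atf4 branch went apart. Asns, the asparagine synthetase and a target of Atf4, had the largest ratio of all members: 13.14 in the deficient pool and 10.41 in the wild type pool on the Cd4Cre array (2.73, 6.64-fold, its only probe at chr6:7625194-7625253, mm9), and 12.17 in the deficient pool and 11.44 in the wild type pool on the Foxp3Cre array (0.73). Chac1, which degrades glutathione and is induced by Atf4, had 8.996 in the deficient pool and 7.18 in the wild type pool on the Cd4Cre array (1.82). The wild type channel was not well above background there. Set against the dimmest wild type signal that still cleared background, the deficient signal of Chac1 was 2.72-fold higher. This bound is nominal and not a strict lower limit. Wild type spots that did not clear background could read brighter than that signal, as the myeloid marker Camp did (7.84). On the Foxp3Cre array Chac1 had 7.87 in the deficient pool, not well above background, and 8.10 in the wild type pool (-0.23). The nominal bound there was 1.098-fold lower (-0.13), within the scanner software's error of 0.46, so no direction can be given. Such bounds are open to dye bias.

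Ddit3 (CHOP), the pro-apoptotic factor of this branch, went the other way: it had 10.54 in the deficient pool and 11.62 in the wild type pool on the Cd4Cre array (-1.08), and 11.89 in the deficient pool and 11.67 in the wild type pool on the Foxp3Cre array (0.21). With the ratio's trend on probe GC content removed, Ddit3 lay just inside 2-fold on the Cd4Cre array (-0.95). Trib3, a pseudokinase that dampens Atf4 signalling, read -0.85 and -0.37 on the Cd4Cre and Foxp3Cre arrays, and Ppp1r15b, the constitutive eIF2 alpha phosphatase subunit, -0.11 and -0.70. The second probe of Ppp1r15b read 0.48 and 0.06 on these arrays, so its direction turned with the probe. All in all this group had 2 of 5 higher by 2-fold or more and 1 of 5 lower by 2-fold or more on the Cd4Cre array. Its median there, -0.11, was the value of Ppp1r15b's brighter probe. On the Foxp3Cre array none was past 2-fold in either direction.

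The symbols Ppp1r15a and Manf were not found as gene names on the arrays, but RefSeq gives them the synonyms Myd116 and Armet, which were. They stand outside every count here. Myd116, the stress-induced eIF2 alpha phosphatase subunit (GADD34), had 11.36 in the deficient pool and 14.92 in the wild type pool on the Cd4Cre array (-3.57, 11.8-fold lower), and 10.09 in the deficient pool and 11.80 in the wild type pool on the Foxp3Cre array (-1.71, 3.27-fold lower). It was thus lower in both deficient pools, by more than any of the 41 members on either array, and read -3.17 and -1.54 with median centring. Its mean over both arrays was -2.64 ± 0.46 (SE, limma), with a Benjamini-Hochberg adjusted p of 0.104. Armet, a lumenal stress protein, read 1.09 and 0.22 on the Cd4Cre and Foxp3Cre arrays.

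**Figure D2:**
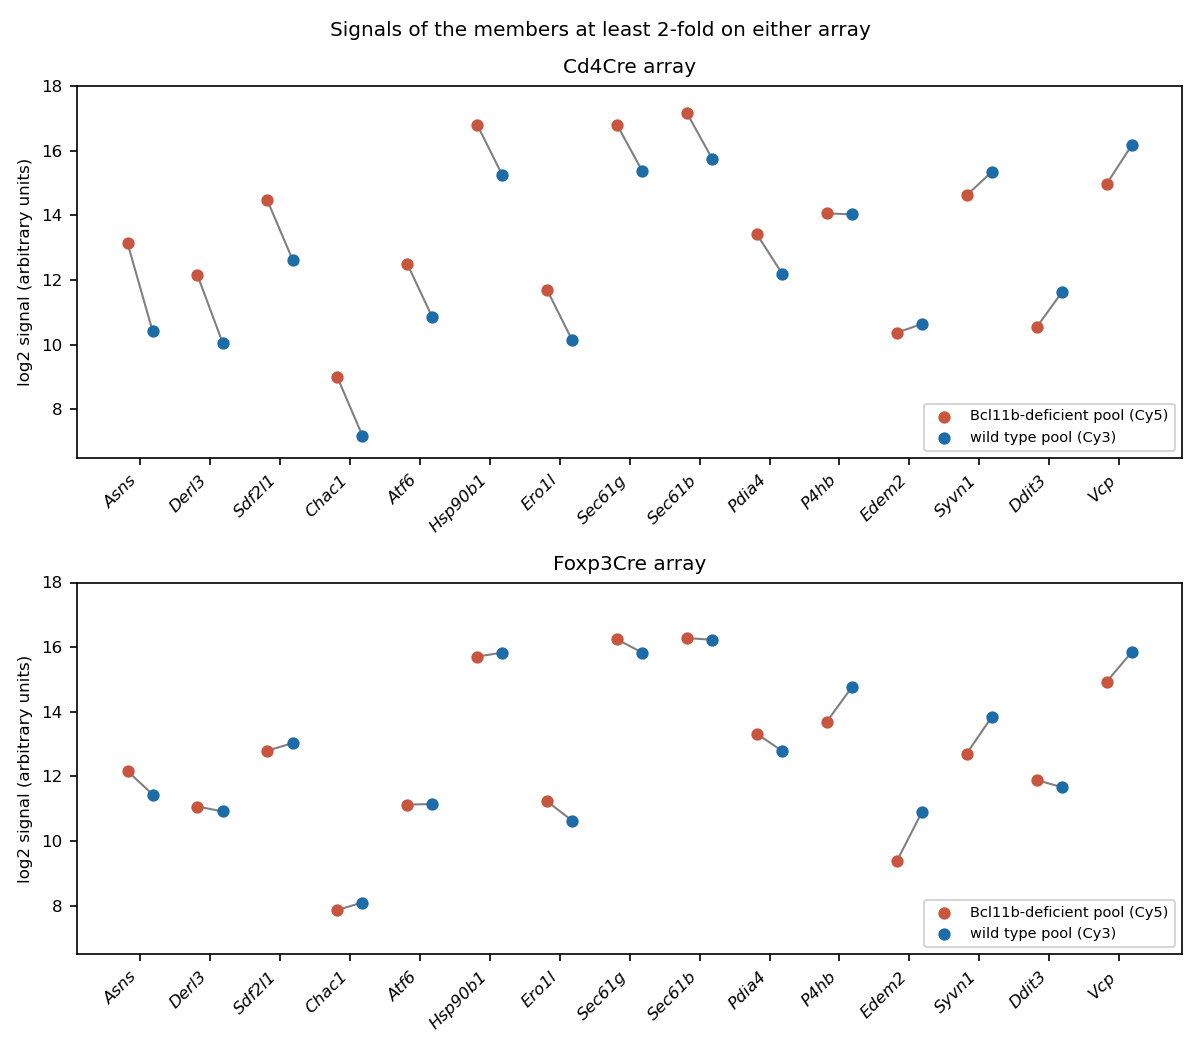
Log2 signal in the Bcl11b-deficient pool (red, left point of each pair) and the wild type pool (blue, right point) of the 15 genes at least 2-fold on either array, on the Cd4Cre array (top) and the Foxp3Cre array (bottom). The 10 genes on the left of the top panel are higher in the deficient pool there, from Pdia4 (1.21) to Asns (2.73), and none of them reaches 2-fold in the bottom panel.

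ER-associated degradation, which draws misfolded proteins back to the cytosol for the proteasome, had 1 of 10 members higher by 2-fold or more and 1 of 10 lower by 2-fold or more on the Cd4Cre array (median 0.02). Derl3, a derlin of the retrotranslocation channel, had 12.15 in the deficient pool and 10.06 in the wild type pool on the Cd4Cre array (2.09, 4.25-fold, its only probe at chr10:75358503-75358562, mm9), and 11.07 in the deficient pool and 10.92 in the wild type pool on the Foxp3Cre array (0.15). Its paralogs lay nearer to 0, with 0.34 and -0.01 for Derl1 on the Cd4Cre and Foxp3Cre arrays. Derl2 was measured by 2 probes that read 0.95 and -0.08 on the Cd4Cre array, and 0.18 and 0.21 on the Foxp3Cre array.

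Vcp, the ATPase that pulls substrates out of the membrane, was lower in both deficient pools: it had 14.97 in the deficient pool and 16.17 in the wild type pool on the Cd4Cre array (-1.20), and 14.93 in the deficient pool and 15.85 in the wild type pool on the Foxp3Cre array (-0.92). Its second probe read -0.73 and -1.45. With median centring the first probe read -0.23 on the Cd4Cre and 0.11 on the Foxp3Cre array, so the size and, on the Foxp3Cre array, the direction turned with the normalization. Syvn1 (HRD1), the ubiquitin ligase of the channel, had 14.62 in the deficient pool and 15.35 in the wild type pool on the Cd4Cre array (-0.74), and 12.71 in the deficient pool and 13.85 in the wild type pool on the Foxp3Cre array (-1.14). With median centring Syvn1 read 0.10 and -0.60 on these arrays.

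Edem2, a mannosidase-like protein that marks glycoproteins for disposal, had the lowest ratio of the members on the Foxp3Cre array, with 9.38 in the deficient pool and 10.90 in the wild type pool (-1.51). On the Cd4Cre array it had 10.37 in the deficient pool and 10.64 in the wild type pool (-0.28). Its relative Edem3 read 0.24 and 0.10 on the Cd4Cre and Foxp3Cre arrays, and the 3 probes of Edem1 read -0.60, 0.11 and 0.64 on the Cd4Cre array and -0.61, -0.57 and 0.05 on the Foxp3Cre array. Herpud1, a stress-induced scaffold of the ligase complex, read 0.17 and -0.47 on the Cd4Cre and Foxp3Cre arrays. Sel1l, the adaptor of Syvn1, read -0.12, 0.03 and 1.80 at its 3 probes on the Cd4Cre array and -0.30, 0.30 and 0.56 on the Foxp3Cre array.

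The translocation channel, its accessory translocon-associated (Ssr) complex and the signal peptidase gave 7 of 8 members above 0 on the Cd4Cre array (median 0.86) and 6 of 8 on the Foxp3Cre array (median 0.31), with 2 of 8 and 0 of 8 higher by 2-fold or more. Of all genes, 7515 of 15915 and 6913 of 15230 were above 0 on these arrays. With median centring 7 of 8 and 6 of 8 members of this group were higher by 2-fold or more, with medians of 1.41 and 1.32, and 8 of 8 and 7 of 8 were above 0. Of all genes, 8447 of 15915 and 8721 of 15230 were then above 0. Under that setting 18% and 13.4% of all genes were higher by 2-fold or more. Among all genes of mean log2 intensity 15 or more these shares were 61.1% and 60.5%, and the median intensity of this group was 15.41. Sec61g, the gamma subunit of the channel, had 16.80 in the deficient pool and 15.37 in the wild type pool on the Cd4Cre array (1.43), and 16.24 in the deficient pool and 15.83 in the wild type pool on the Foxp3Cre array (0.41). Sec61b, the beta subunit, had 17.16 in the deficient pool and 15.75 in the wild type pool on the Cd4Cre array (1.41), and 16.28 in the deficient pool and 16.23 in the wild type pool on the Foxp3Cre array (0.05). The brightest probe of the pore subunit Sec61a1 read -0.08 and -0.78 on the Cd4Cre and Foxp3Cre arrays. With median centring it read 0.88 and 0.23, so the direction of this probe turned on both. With loess the other 2 probes of Sec61a1 read -0.38 and -0.84 on the Cd4Cre array and -1.31 and -0.81 on the Foxp3Cre array.

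Of the signal peptidase subunits, Spcs1 read 0.94 and 0.26 and Spcs2 0.17 and 0.36 on the Cd4Cre and Foxp3Cre arrays. Ssr2 read 0.97 and -0.66. The 5 probes of Ssr1 read 0.77, 1.65, 0.83, 0.63 and -0.52 on the Cd4Cre array, and 0.66, 0.59, 0.71, 0.75 and -0.03 on the Foxp3Cre array, so 4 of the 5 were above 0 on both. The 3 probes of Ssr3 read 0.51, 0.86 and 1.81 on the Cd4Cre array and 0.42, 0.87 and 0.73 on the Foxp3Cre array, all above 0. Of the 19 members with several detected probes, these and Calr, Derl2, Edem1, Pdia6 and Sel1l, 7 in all, had probes that differed by over 1 on an array (36.8%, against 28.2% of 4874 genes with several detected probes).

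Many members are measured by bright probes, and there the ratio leaned on the normalization. Of the 41, 12 had a mean log2 intensity of 15 or more, and their median was 0.49 on the Cd4Cre and 0.01 on the Foxp3Cre array. All genes of that intensity had medians of 0.16 (985 genes) and 0.05 (986 genes). With median centring the members' medians became 1.34 and 1.08, and those of all bright genes 1.30 and 1.13. The bright genes as a whole thus moved by about as much as the bright members, Hsp90b1, Sec61b, Sec61g and Vcp among them. Of the 10 members higher by 2-fold or more on the Cd4Cre array, all but Chac1, which has only a nominal bound there, were measured in both pools. These 9 stayed higher by 2-fold or more under each of the alternatives tried, from 1.098 for Hsp90b1 with its probes averaged to 2.88 for Asns with median centring.

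**Figure D3:**
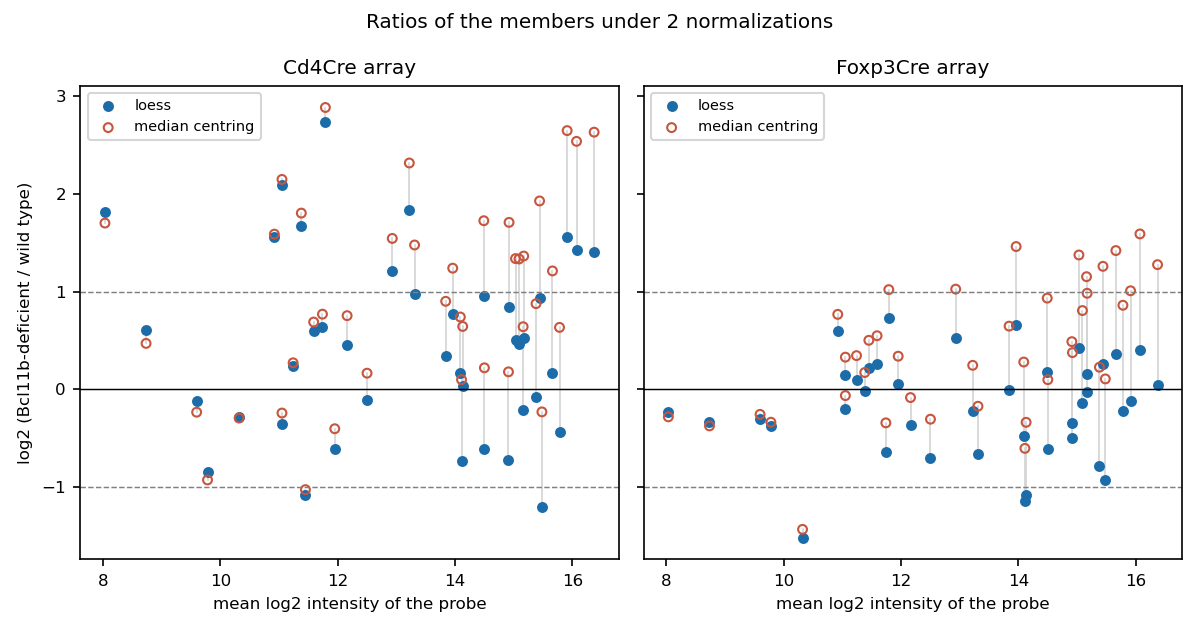
Log2 ratio of Bcl11b-deficient over wild type of each of the 41 genes against the mean log2 intensity of its probe, with loess (filled) and with median centring (open), on the Cd4Cre array (left) and the Foxp3Cre array (right). Grey lines join the values of a gene; they lengthen with intensity, and above 15 the open points have medians of 1.34 and 1.08.

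The ratio was larger on the Cd4Cre array in 32 of the 41 (78%), against 58% of the 14410 genes detected on both arrays. The median of Foxp3Cre minus Cd4Cre was -0.65 over the members and -0.14 over all genes. By role the median difference was -1.27 for the chaperones, -0.64 for the disulfide bond enzymes, -0.82 for the sensors and factors, -0.60 for the PERK and Atf4 targets, -0.38 for degradation and -0.69 for translocation. Of the members, 13 were above 0 on both arrays, 11 below 0 on both, 14 above 0 on the Cd4Cre array alone and 3 above 0 on the Foxp3Cre array alone. Over all 14410 genes these counts were, in the same order, 4353, 5466, 2563 and 2028. No member was at least 2-fold in the same direction on both arrays, and none at least 2-fold in opposite directions. Such genes were few among all 14410 as well: 193 were at least 2-fold higher on both, 658 lower on both and 65 in opposite directions. With 1 array per Cre system the difference between them was not tested.

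**Figure D4:**
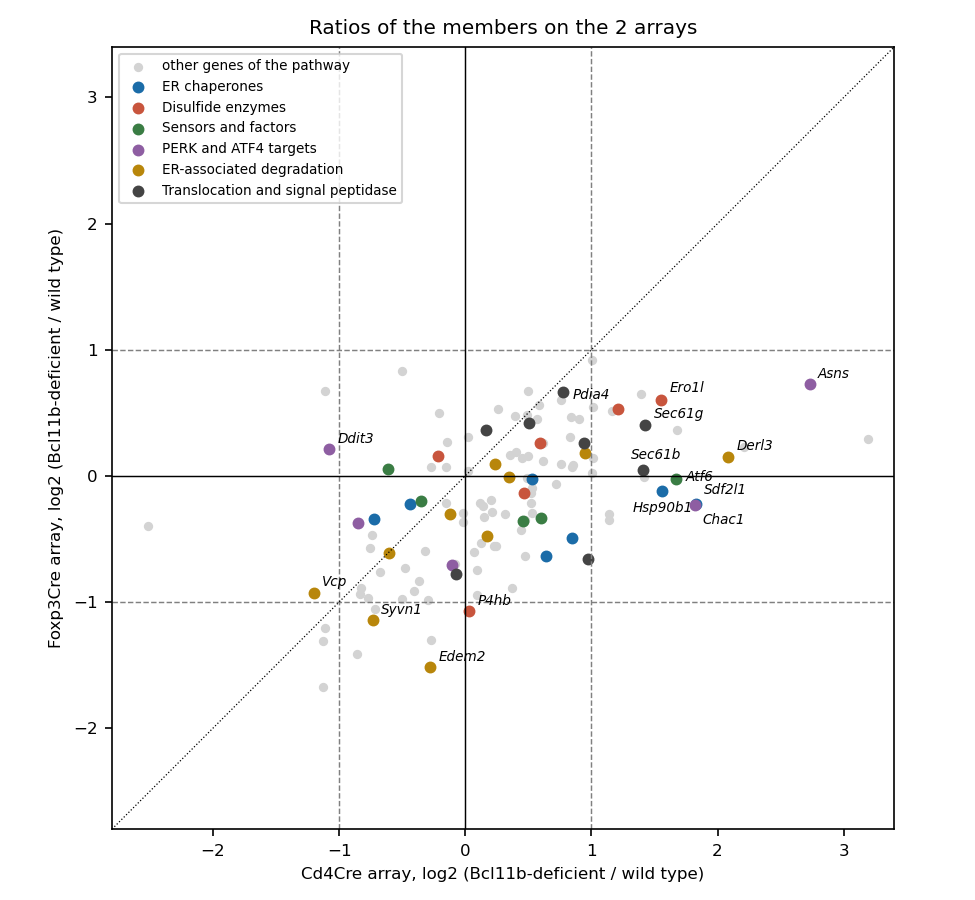
Log2 ratio of Bcl11b-deficient over wild type on the Cd4Cre array (horizontal axis) against that on the Foxp3Cre array (vertical axis), for the 41 genes by role and, in grey, 85 other genes of the pathway detected on both arrays. Dashed lines mark 2-fold and the dotted diagonal equal ratios; 32 of the 41 lie below the diagonal, and the points of Sdf2l1 and Chac1 nearly coincide.

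The mean over both arrays was tested with limma across all 14410 genes detected on both, a test in which the difference between the Cre systems counts as spread and 1 residual degree of freedom is left. At a Benjamini-Hochberg adjusted p under 0.05 it called 0 members and 0% of all genes, with a lowest adjusted p of 0.113 for Asns (mean 1.73 ± 0.48, SE, above 0 on both arrays). At an unadjusted p under 0.05 it gave 5 members as higher (Asns, Ero1l, Pdia4, Sec61g and Derl3) and 2 as lower (Vcp and Syvn1), against 8.47% of all genes as higher and 14.1% as lower. With median centring it called 1 member, Sec61g, among 311 genes.

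Members that share an ERSE did not share a ratio. The 9 with the element had a median of 0.53 on the Cd4Cre array, with a range from -0.74 (Syvn1) to 2.09 (Derl3) and 2 higher by 2-fold or more. The 26 without it had a median of 0.35 and a range from -1.20 to 2.73, with 7 higher by 2-fold or more and 2 lower by 2-fold or more. The medians on the Foxp3Cre array were -0.14 with and 0.05 without the element. The 4 with an Atf4 site ran from -0.85 (Trib3) to 2.73 (Asns) on the Cd4Cre array. For the 6 members without a promoter sequence (Atf6, Derl1, Hyou1, Ppp1r15b, Sec61a1 and Ssr2) no search was made.

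Beyond the 41, 90 further genes of the pathway were listed, of which 85 were detected on the Cd4Cre and 86 on the Foxp3Cre array. On the Cd4Cre array 12 were higher by 2-fold or more and 5 lower by 2-fold or more (median 0.26), and on the Foxp3Cre array 0 were higher by 2-fold or more and 6 lower by 2-fold or more (median -0.16). These are 14.1% higher and 5.88% lower on the Cd4Cre array, beside 11.4% and 10.6% of all genes, and 0% higher and 6.98% lower on the Foxp3Cre array, beside 2.94% and 11.5%. The highest on the Cd4Cre array were the stress-induced chromatin protein Nupr1 (3.19), the peptidyl-prolyl isomerase Fkbp11 (2.21) and the mitochondrial folate enzyme Mthfd2 (1.68), an Atf4 target. The lowest were the stress factor Atf3 (-2.52), the signal recognition particle subunit Srp68 (-1.13) and the lectin Os9 (-1.13), which hands glycoproteins to Syvn1.

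Highest on the Foxp3Cre array were the oligosaccharyltransferase subunit Stt3a (0.92), the translocation factor Tloc1 (Sec62, 0.83) and the cystine transporter subunit Slc7a11 (0.72). The lowest were Srp68 (-1.68), Gcs1 (Mogs, the first glucosidase of glycan trimming, -1.41) and Os9 (-1.31). No gene of this list was higher by 2-fold or more on both arrays. Os9 (-1.13 and -1.31), Srp68 (-1.13 and -1.68) and Mbtps1, the protease that cuts Atf6 (-1.11 and -1.21), were lower by 2-fold or more on both, the Cd4Cre array first. Of the 85 detected on both arrays, 3 were thus lower and 0 higher on both, against 658 and 193 of all 14410 genes. With median centring Os9 read -0.41 and -0.66, Mbtps1 -0.40 and -0.41, and Srp68 -1.11 and -1.51 on these arrays.

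Markers of cells other than Tregs also differed between the pools of the Cd4Cre array. Of 6 plasma cell markers, 4 were higher by 2-fold or more in the deficient pool there (median 2.02), led by the immunoglobulin joining chain Igj (3.28), the secretory cofactor 2010001M09Rik (Mzb1, 3.12) and the survival receptor Tnfrsf17 (2.79), while Prdm1 (-0.59) and Irf4 (-0.78) were below 0. Their summed signal was 151000 in the deficient pool and 20920 in the wild type pool on the Cd4Cre array, and 73190 in the deficient pool and 58620 in the wild type pool on the Foxp3Cre array, where none was at least 2-fold (median 0.16). All 6 were well above background in each pool.

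The 4 B cell markers had medians of 1.06 and -0.03 on the Cd4Cre and Foxp3Cre arrays, the 6 myeloid markers 5.41 and 1.77, the 4 NK cell markers 3.12 and 0.68, and the 5 genes of cycling cells 2.57 and 0.56. Summed myeloid signal was 473000 in the deficient pool and 22150 in the wild type pool on the Cd4Cre array, and 259900 in the deficient pool and 139700 in the wild type pool on the Foxp3Cre array. The 6 salivary gland markers, a secretory tissue, were lower by 2-fold or more on the Foxp3Cre array without exception (median -3.36), with a summed signal of 5258 in the deficient pool and 79880 in the wild type pool; Pip and Dcpp1 were not well above background in the deficient pool. On the Cd4Cre array Smr3a and Car6 were not well above background in either pool, and the other 4 summed to 6573 in the deficient pool and 1649 in the wild type pool. Summed over the 41 members, the signal was 1132000 in the deficient pool and 838000 in the wild type pool on the Cd4Cre array, and 791900 in the deficient pool and 847400 in the wild type pool on the Foxp3Cre array. The part of these cell types, or of proliferation, in the members' ratios was not tested.

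**Figure D5:**
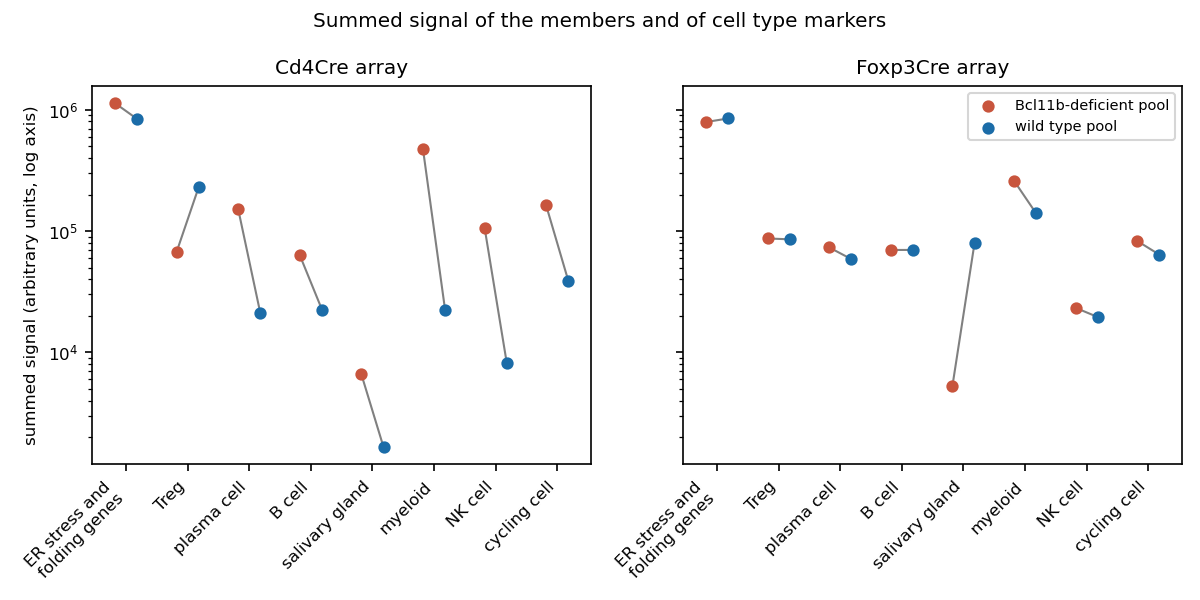
Summed signal (log axis, arbitrary units) of the 41 genes and of each marker list in the Bcl11b-deficient pool (red, left point) and the wild type pool (blue, right point), on the Cd4Cre array (left) and the Foxp3Cre array (right); only detected genes enter a sum. On the left the Treg sum is lower and all other sums are higher in the deficient pool, and on the right the salivary gland sum is lower in the deficient pool.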

How the data were processed

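Per the labels' protocols, RNA of sorted Tregs was amplified and then dyed with the Kreatech ULS kit before hybridisation to 2 Agilent arrays. The array labelled with Foxp3-Gfp+ cells was taken as the Cd4Cre one, since the design text names that reporter for this system alone. Per the file headers, the scans were quantified in Feature Extraction 10.5.1.1 (Cd4Cre array) and 10.7.3.1 (Foxp3Cre array); the submitters' processing notes name 10.5.1. The authors deposited, for each spot and channel, the mean and local background intensity and quality flags. The deposited files also hold a log10 ratio (Cy5 over Cy3) computed by that software, its error, and a p-value that was not used. The separate value table holds the same log10 ratios as the authors' scanner files (largest difference 0).

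Here the intensities were background-corrected with normexp (offset 50) and each array was then loess-normalized, control spots carrying weight 0 (limma 3.58.1, R 4.3.3). Outlier spots (137 and 155) were dropped and spots of a probe averaged. Channel signals are those after Aquantile normalization. No spot was saturated. With 1 array per Cre system, 2-fold was counted without a test; the limma fit over both arrays was tested on simulated data. Where only 1 channel was above background, a nominal bound is given. Probe positions are on mm9, and their place in the transcript was not annotated here.

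All members are named, with both signals for those at least 2-fold on either array; of the other pathway genes, those at least 2-fold on both arrays and the 3 highest and 3 lowest on each. The members and lists were chosen with earlier results of these data known. Alternatives tried were uncorrected background, an offset of 10, the software's own ratio, centring on the median, averaging a gene's probes, dim probes either all kept or required above background in both channels, outlier spots kept, removal of the GC trend, and limma with an intensity trend. Slide and scan could not be blocked, and no replicate could be left out.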

Additional observations from a re-analysis of the deposited data

How the results depend on the processing

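Median centring without loess changed the most. It gave 19 members higher by 2-fold or more and 1 lower on the Cd4Cre array (10 and 2 with loess), 10 higher and 1 lower on the Foxp3Cre array (0 and 3 with loess), and 1 member called by limma (0 with loess). The shares over all genes moved too: 18% (Cd4Cre array) and 13.4% (Foxp3Cre array) were then higher, against 11.4% and 2.94% with loess. The members' median became 0.88 (Cd4Cre array) and 0.35 (Foxp3Cre array), against 0.47 and -0.14 with loess. Over all genes limma called 311 with median centring and 34 with the filter requiring both channels above background, against 0. Averaging a gene's probes also turned the Foxp3Cre median, to 0.049, and left 1 member lower on the Cd4Cre array. Removing the trend on probe GC content likewise left 1 member lower there. The other counts and medians of the members kept their direction and stayed within 1.5 times (counts) or within the scanner error (medians). Of the 15 values at least 2-fold on an array, 10 stayed at least 2-fold in every setting that gave a value, Chac1 by a ratio whose wild type channel was not well above background; the others were Vcp and Ddit3 on the Cd4Cre array and P4hb, Syvn1 and Edem2 on the Foxp3Cre array. No value past 2-fold changed sign. A block on slide or scan was not run, since each array is 1 slide. No paired analysis was possible because each ratio already sets the 2 pools of 1 array against each other, and 1 array per Cre system leaves no second pair for a replicate block. The limits are 1 array per system, no dye swap, and ratios of bright probes that depend on the normalization.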

Other observations

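The further lists of the pathway are given here with no test between them; of all genes, 11.4% were higher and 10.6% lower by 2-fold or more on the Cd4Cre array, and 2.94% higher and 11.5% lower on the Foxp3Cre array. Of 16 detected chaperones and co-chaperones beyond the members, 6 were higher by 2-fold or more on the Cd4Cre array (median 0.57) and none on the Foxp3Cre array (median -0.11). They were Fkbp11 (2.21), Fkbp2 (1.42), Erp29 (1.14), Txndc5 (1.14), Ppib (1.01) and Stch (Hspa13, 1.01), named after their values were seen. Dnajb9, a co-chaperone of Hspa5 and a target of Xbp1, was lower by 2-fold or more there (-1.11) and read 0.68 on the Foxp3Cre array. N-glycosylation genes had 2 of 12 higher by 2-fold or more on the Cd4Cre array and 2 of 12 lower by 2-fold or more on the Foxp3Cre array, with medians of 0.08 and -0.41.

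The other degradation genes had medians of 0.36 and -0.30 on the Cd4Cre and Foxp3Cre arrays, and all 12 had the larger ratio on the Cd4Cre array. Genes of transport to the Golgi had medians of 0.22 and -0.06, none at least 2-fold in either direction on either array. The other translocation and signal peptidase genes had medians of 0.26 and 0.31, and 6 of 11 had the larger ratio on the Cd4Cre array. With median centring their medians were 0.32 and 1.12, with 4 and 6 of 11 higher by 2-fold or more, against 18% and 13.4% of all genes. Of these, Sec11c, a catalytic subunit of the signal peptidase, read 1.39 and 0.65. The other stress regulators and Atf4 targets held both the highest and the lowest gene of the further lists on the Cd4Cre array, Nupr1 (3.19) and Atf3 (-2.52), with list medians of 0.22 and -0.35. With median centring these 6 lists had medians from 0.32 to 1.12 on the Cd4Cre array and from -0.01 to 1.12 on the Foxp3Cre array.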
